A study of Mus musculus with 9 samples.

Results

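The genes described here are 10 members of clade A of the serpin family in mouse liver: the alpha-1 antitrypsin copies Serpina1a, Serpina1b, Serpina1c, Serpina1d and Serpina1e, the Serpina3 genes Serpina3k, Serpina3m and Serpina3n, and Serpina6 and Serpina12. Members were taken by gene symbol, with the transcript cluster of the highest mean over the 9 arrays to be used where a symbol had several. Of the 10 genes, 8 had a transcript cluster under their symbol, 1 cluster each, out of 19505 distinct gene symbols on the array. Serpina3k and Serpina3m were not analysed here. The family was chosen by measured values of these arrays, the low Serpina1e signal of obese livers against wild type, so the Serpina1e difference between obese and wild-type liver is given as a description and carries no p-value.

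Liver RNA of 9 male mice was measured on Clariom S arrays, 1 array for each mouse and 3 for each group. The first group was C57BL/6JHamSlc-ob/ob mice given 100 mg/kg of an extract of Vigna umbellata (rice bean), called VE, by oral gavage. The second was C57BL/6JHamSlc-ob/ob mice given vehicle, and the third was non-obese C57BL/6JHamSlc-+ /+ mice given vehicle, called wild type below. Mice were 6 weeks old on arrival, had 1 week of acclimatization, and were then dosed for 42 days on standard chow. The ob/ob genotype removes functional leptin in the whole body, so both ob/ob groups are obese throughout and no wild-type group received VE. The labels number 3 samples in each group without stating that each is a separate litter or cage, so p-values here measure the spread between these samples.

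Serpins are protease inhibitors that work as suicide substrates: the target protease cuts an exposed reactive loop, and the serpin then changes shape and traps the enzyme. Hepatocytes secrete the Serpina1 products into blood in large amounts, where alpha-1 antitrypsin restrains neutrophil elastase. Humans have a single such gene, while mice carry several near-identical copies whose reactive loops differ. Serpina3n is a secreted inhibitor of the acute phase response, Serpina6 encodes corticosteroid-binding globulin, a serpin that carries glucocorticoid hormone in blood instead of inhibiting a protease, and Serpina12 encodes vaspin, first described in visceral fat.

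The 5 Serpina1 copies lie side by side on chromosome 12, all on the minus strand, in the order Serpina1b, Serpina1d, Serpina1a, Serpina1c and Serpina1e. RefSeq promoter windows of build GRCm38.p6 were matched for 7 of the 10 genes. The 250 bases before the annotated start are shown for Serpina1e, the copy with the largest range over the arrays, for Serpina1b, whose window is nearest to it in sequence, and for Serpina1c, its neighbour on the chromosome. In Serpina1b and Serpina1c, capitals mark bases with no identical partner in the aligned Serpina1e window, and in Serpina1e they mark the 4 mismatches to Serpina1b. The windows are at chr12:103956898-103957147 for Serpina1e, chr12:103738190-103738439 for Serpina1b and chr12:103904951-103905200 for Serpina1c.
Serpina1e: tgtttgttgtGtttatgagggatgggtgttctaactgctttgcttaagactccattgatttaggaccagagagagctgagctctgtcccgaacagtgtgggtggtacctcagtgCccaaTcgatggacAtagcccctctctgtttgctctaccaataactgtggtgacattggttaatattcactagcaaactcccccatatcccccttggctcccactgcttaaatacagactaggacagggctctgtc
Serpina1b: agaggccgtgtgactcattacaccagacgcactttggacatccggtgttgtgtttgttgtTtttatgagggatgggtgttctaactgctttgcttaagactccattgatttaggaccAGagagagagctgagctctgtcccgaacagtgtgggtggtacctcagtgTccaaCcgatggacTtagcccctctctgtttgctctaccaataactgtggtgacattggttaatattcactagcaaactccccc
Serpina1c: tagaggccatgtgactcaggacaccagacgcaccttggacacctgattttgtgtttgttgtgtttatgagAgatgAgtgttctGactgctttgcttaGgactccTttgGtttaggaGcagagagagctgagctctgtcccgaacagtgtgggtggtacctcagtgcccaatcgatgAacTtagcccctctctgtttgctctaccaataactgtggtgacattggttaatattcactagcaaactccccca

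Over the aligned bases, the Serpina1e window was identical to Serpina1b at 194 of 198 positions (98.0%), beside 1 gap. Its identity to all 4 other copies lay between 95.3% and 98.0%, and the 6 pairs among the other copies lay between 92.1% and 95.5%. The windows sit at different offsets, since the annotated starts of the copies differ. Pairs with Serpina1e aligned over 188 to 199 bases and the other pairs over 238 to 248. The identity ranges thus cover unlike stretches, and do not show that Serpina1e is nearer to the other copies than those are to each other. The letters TTCNNNGAA, the form bound by STAT5, were in none of the 7 matched windows when both strands were searched, and in 7.02% of all RefSeq promoter windows of this length. The motif was picked after the expression values had been seen, and the absence of these letters from a window is a description only.

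Values below are log2 signals as deposited, so 1 unit is a doubling, and levels are compared within a gene and never between genes. Array maxima lay between 19.78 and 19.93, and the whole table ran down to 1.86. Ob/ob vehicle 3 correlated with the other ob/ob vehicle arrays at 0.948 and 0.952, and wild-type vehicle 3 with the other wild-type arrays at 0.955 each, whereas the remaining pairs within groups lay between 0.980 and 0.990. These 2 arrays also had the narrowest spread of values (interquartile ranges of 3.26 and 3.01), so results that rest on them are given with and without them. The hepatocyte markers had array means of 18.91 to 19.14 in VE livers, 18.78 to 18.97 in ob/ob vehicle livers and 19.19 to 19.40 in wild-type livers, as the tissue label says. In whole liver, fewer cells of a type and less RNA in each cell cannot be told apart. The copies are so alike that probes of one may capture transcripts of another, and this was not tested. None of the 8 clusters had the same values as any other cluster of the table.

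Serpina1e stood at 12.63, 13.59 and 14.17 in VE livers, at 13.48, 13.20 and 12.43 in ob/ob vehicle livers, and at 19.33, 19.57 and 17.36 in wild-type livers. Every obese liver of either treatment lay below every wild-type liver, and the lowest wild-type value belonged to the array that stood apart. The group means were 13.46 ± 0.78 in VE livers, 13.04 ± 0.54 in ob/ob vehicle livers and 18.75 ± 1.21 in wild-type livers (SD, n = 3). The ob/ob vehicle mean was lower than wild type by a log2 difference of -5.72 (SE 0.59), which is 52.6-fold on the linear scale and the fall of rank 8 among 22206 clusters. The VE mean was lower than wild type by -5.29 (SE 0.59), or 39.1-fold, the fall of rank 9. Without wild-type vehicle 3 the ob/ob vehicle difference was -6.41 and the VE difference -5.99, and without wild-type vehicle 2 the ob/ob vehicle difference was -5.31.

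**Figure D1:**
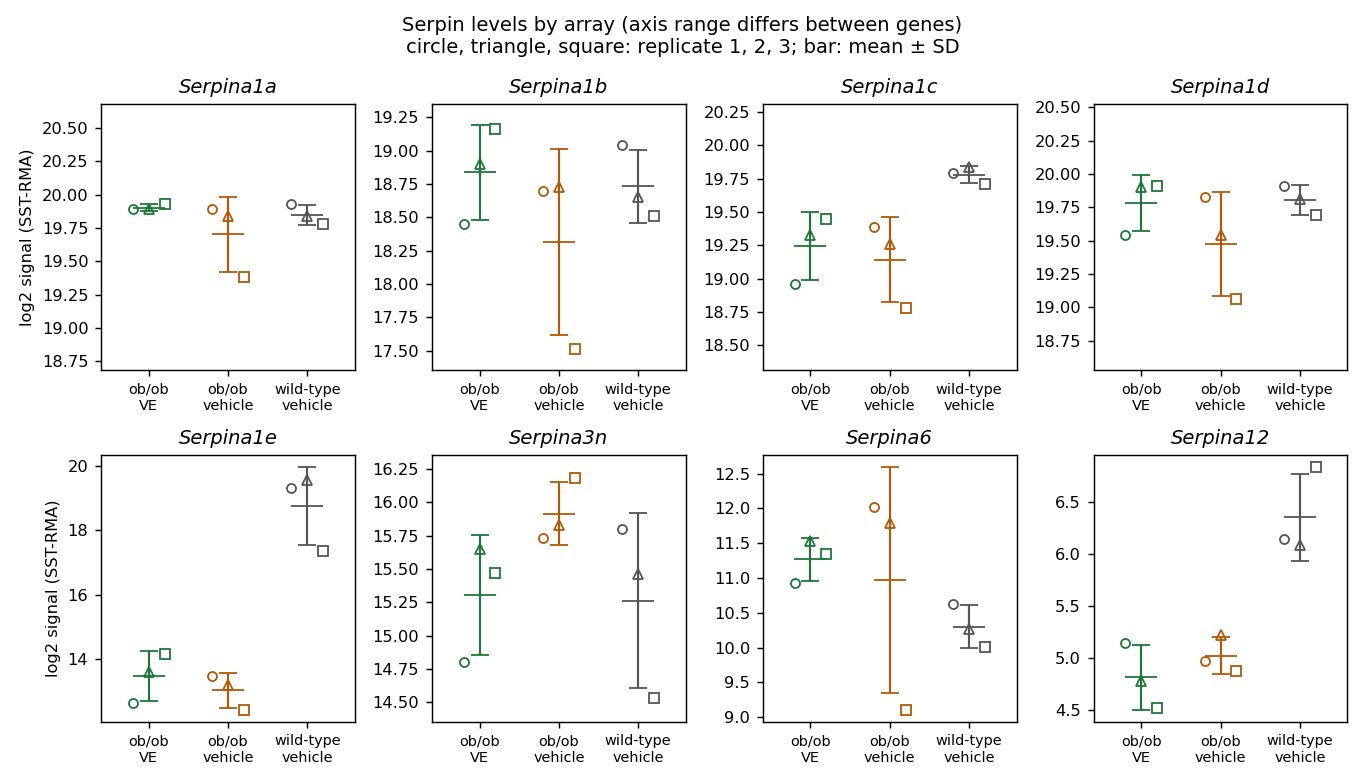
Log2 signal (y axis) of each measured serpin on each of the 9 arrays, 1 panel a gene, with symbols for arrays and bars for group means ± SD (n = 3), on axis ranges that differ between genes, in the order ob/ob VE, ob/ob vehicle and wild-type vehicle. Serpina1e lies between 12.43 and 14.17 on the 6 ob/ob arrays and between 17.36 and 19.57 on the 3 wild-type arrays, while Serpina1a stays between 19.38 and 19.93 on all 9.

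The other 4 copies of the cluster stayed near the top of the scale in all groups. Serpina1a was at 19.89, 19.89 and 19.93 in VE livers, at 19.89, 19.84 and 19.38 in ob/ob vehicle livers and at 19.93, 19.84 and 19.78 in wild-type livers. It equalled the maximum of its array on 4 of the 9 arrays, VE 3 and all 3 wild-type arrays, so at the upper end a difference in Serpina1a may not be visible. Serpina1d was at 19.54, 19.90 and 19.91 in VE livers, at 19.83, 19.54 and 19.06 in ob/ob vehicle livers and at 19.91, 19.81 and 19.69 in wild-type livers. The maxima of the wild-type arrays were 19.93, 19.84 and 19.78, and those of VE 2 and VE 3 were 19.93. Serpina1d was close to them there, so the same limit holds for it. Ob/ob vehicle 3 was the lowest of the 9 arrays for both genes, and the 3 groups overlapped.

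Serpina1b gave 18.45, 18.90 and 19.16 in VE livers, 18.70, 18.73 and 17.51 in ob/ob vehicle livers, and 19.04, 18.65 and 18.51 in wild-type livers. It too was lowest on ob/ob vehicle 3, and its groups overlapped. Serpina1c gave 18.96, 19.33 and 19.45 in VE livers, 19.39, 19.26 and 18.78 in ob/ob vehicle livers, and 19.79, 19.84 and 19.71 in wild-type livers, where wild-type vehicle 2 was at its array's maximum. For Serpina1c all 6 obese livers lay below all 3 wild-type livers, with no overlap. All 3 wild-type values were close to their array maxima, so the top of the scale may limit the size of this difference.

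Between ob/ob vehicle and wild-type livers, none of Serpina1a to Serpina1d passed the limma test across all clusters at an adjusted p under 0.05. Their differences ran from -0.64 to -0.15, with adjusted p-values of 0.226 to 0.803. Serpina1c had the lowest of these values, -0.64 (SE 0.25, limma adjusted p = 0.226), and its unadjusted p of 0.0285 met the looser criterion of the design text, which asks for a linear fold above 1.1 and takes the p without adjustment. VE livers differed from wild-type livers in Serpina1c by -0.53 (SE 0.25, limma adjusted p = 0.376). Leaving out ob/ob vehicle 3 moved the ob/ob vehicle difference of Serpina1c to -0.46 and that of Serpina1b to -0.02, against -0.42 with it. With each array's interquartile range in the fit the differences were larger, -0.37 for Serpina1a, -1.08 for Serpina1b (limma adjusted p = 0.0664), -0.93 for Serpina1c (0.0925) and -0.66 for Serpina1d. Serpina1a and Serpina1d differed between VE and wild-type livers by 0.05 (SE 0.23) and -0.02 (SE 0.26).

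Of the 7 measured genes other than Serpina1e, 1 was called lower and 0 higher in ob/ob vehicle than in wild-type livers, where 0.680% of all clusters were called lower and 2.28% higher. By the looser criterion 2 of the 7 were lower and 0 higher, against 6.72% and 10.3% of all clusters. In 2 of the 7 the groups did not overlap with ob/ob vehicle lower and in 0 with it higher, against 9.78% and 9.71%. The median difference of the 7 was -0.33, beside -0.06 over all clusters. Between VE and wild-type livers 1 of the 7 was again called lower and 0 higher, against 0.315% and 0.977% of all clusters, and by the looser criterion also 1 lower and 0 higher, against 5.82% and 8.21%. There 2 did not overlap with VE lower, against 10.6% of clusters, and 1 did not overlap with VE higher, against 11.1%, and the median of the 7 was 0.04 beside -0.05 over all clusters. Both comparisons use the same 3 wild-type arrays.

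**Figure D2:**
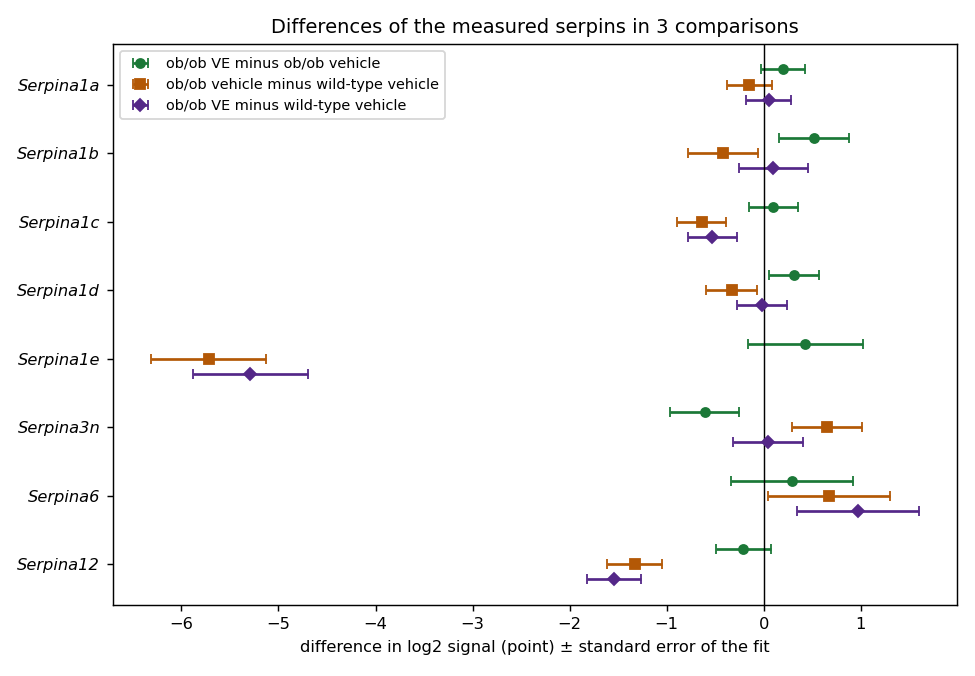
Log2 difference (x axis) of each measured serpin (rows) for ob/ob VE minus ob/ob vehicle, ob/ob vehicle minus wild-type vehicle and ob/ob VE minus wild-type vehicle, with bars of 1 standard error of the limma fit (n = 3 arrays a group). Serpina1e lies at -5.72 and -5.29 against wild type, and all other differences lie between -1.54 and 0.97.

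The gene called lower in both comparisons was Serpina12 (vaspin). Its signal was 5.14, 4.78 and 4.52 in VE livers, 4.97, 5.22 and 4.87 in ob/ob vehicle livers, and 6.14, 6.08 and 6.83 in wild-type livers. No obese liver reached the wild-type range. Group means were 4.81 ± 0.31 in VE livers, 5.02 ± 0.18 in ob/ob vehicle livers and 6.35 ± 0.42 in wild-type livers (SD, n = 3). The difference from wild type was -1.33 in ob/ob vehicle livers (SE 0.28, limma adjusted p = 0.0362), a linear fold of 0.398, and -1.54 in VE livers (SE 0.28, limma adjusted p = 0.0286), a linear fold of 0.345.

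Serpina12 was dim throughout. As a yardstick, 97.5% of the 1091 olfactory receptor clusters, genes that liver is not known to use, lay under 5.33 to 5.45 on the VE arrays, under 5.35 to 6.44 on the ob/ob vehicle arrays and under 5.56 to 6.62 on the wild-type arrays. Serpina12 was under this level on all 6 ob/ob arrays and above it on all 3 wild-type arrays, so the folds may understate or overstate the difference. The olfactory median was 3.65 to 3.75 on VE arrays, 3.63 to 4.33 on ob/ob vehicle arrays and 3.78 to 4.50 on wild-type arrays. The part of this background in the Serpina12 difference was not tested. The call was close to the threshold. With the replicate number of the labels as a block the adjusted p was 0.0643 for ob/ob vehicle and 0.057 for VE against wild type. The ob/ob vehicle call was lost without VE 2, VE 3, ob/ob vehicle 1, ob/ob vehicle 2, wild-type vehicle 2 or wild-type vehicle 3 (adjusted p of 0.0711, 0.0537, 0.125, 0.0908, 0.0834 and 0.0999), and without both arrays that stood apart it was -1.01 (adjusted p = 0.0547). The VE call was lost without any 1 of VE 1, VE 2, VE 3, ob/ob vehicle 1, ob/ob vehicle 2, wild-type vehicle 2 and wild-type vehicle 3 (adjusted p of 0.062, 0.15, 0.119, 0.052, 0.0503, 0.0726 and 0.0861). The sign was kept on leaving out each array in turn.

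Serpina6 (corticosteroid-binding globulin) read 10.93, 11.53 and 11.34 in VE livers, 12.02, 11.79 and 9.11 in ob/ob vehicle livers, and 10.62, 10.27 and 10.01 in wild-type livers. The first 2 ob/ob vehicle livers were the highest of the 9 and ob/ob vehicle 3, the array that stood apart, was the lowest. All 3 VE livers lay above all 3 wild-type livers. Means were 11.27 ± 0.31 in VE livers, 10.97 ± 1.62 in ob/ob vehicle livers and 10.30 ± 0.31 in wild-type livers (SD, n = 3). Neither difference from wild type passed the test: it was 0.97 in VE livers (SE 0.63, limma adjusted p = 0.523) and 0.67 in ob/ob vehicle livers (SE 0.63, limma adjusted p = 0.65). Without ob/ob vehicle 3 the ob/ob vehicle difference was 1.60 (limma adjusted p = 0.00941), and without both arrays that stood apart it was 1.46 (limma adjusted p = 0.0124). With the interquartile range in the fit the direction turned, to -0.60.

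Serpina3n, the secreted inhibitor related to human alpha-1 antichymotrypsin, read 14.80, 15.65 and 15.47 in VE livers, 15.73, 15.83 and 16.18 in ob/ob vehicle livers, and 15.80, 15.46 and 14.53 in wild-type livers. Each of the 3 ob/ob vehicle livers was above each VE liver, while wild type overlapped both. The means were 15.31 ± 0.45 in VE livers, 15.91 ± 0.24 in ob/ob vehicle livers and 15.26 ± 0.66 in wild-type livers (SD, n = 3). The ob/ob vehicle livers differed from wild type by 0.65 (SE 0.36, limma adjusted p = 0.401) and the VE livers by 0.04 (SE 0.36, limma adjusted p = 0.971), so neither passed the test. The gap to wild type in ob/ob vehicle livers was 0.28 without wild-type vehicle 3.

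The extract was compared with vehicle within ob/ob mice. None of the 8 measured serpins passed limma's test, and 0.00% of all 22206 clusters did, with a lowest adjusted p of 0.593. The looser criterion was met by 1433 clusters (6.45%) and by 0 of the 8 serpins. The lowest adjusted p among them was that of Serpina3n, at a difference of -0.61 (SE 0.36, limma adjusted p = 0.826), and Serpina3n was the 1 gene of 8 whose groups did not overlap with VE lower, against 6.08% of all clusters (7.47% did not overlap with VE higher, and 0 of the 8). Leaving out VE 1 brought that difference to -0.35. Serpina1e was 0.43 higher in VE livers, within its error (SE 0.59, limma adjusted p = 0.925), and without VE 3 its difference was 0.07. The 4 other Serpina1 copies differed by 0.10 to 0.52, with standard errors of 0.23 to 0.36. Serpina1b had the highest of these values, 0.52 (SE 0.36, limma adjusted p = 0.845), which was 0.12 without ob/ob vehicle 3. Serpina6 differed by 0.29 (SE 0.63), which turned to -0.64 without ob/ob vehicle 3, and Serpina12 by -0.21 (SE 0.28).

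Among the neighbours on chromosome 12 with a clear signal, Serpina11 had lower values in obese liver and the groups of Serpina10 overlapped. Serpina11, a serpin of little known function next to Serpina1e, read 7.96, 8.13 and 8.54 in VE livers, 8.60, 8.03 and 8.95 in ob/ob vehicle livers, and 9.49, 9.12 and 9.12 in wild-type livers. It was lower on all 6 obese arrays without passing the test (ob/ob vehicle minus wild type -0.72, SE 0.29, limma adjusted p = 0.244, and VE minus wild type -1.03, SE 0.29, limma adjusted p = 0.143). Serpina9, between Serpina11 and Serpina12, differed by -0.01 between ob/ob vehicle and wild type (SE 0.26). It was dim, between 2.52 and 3.23 on all arrays. Serpina1f, beside Serpina1b, was between 2.53 and 3.30. Both were under the olfactory receptor level used for Serpina12 on every array, so a fall in obese liver could not be seen there. Serpina10, the inhibitor of coagulation factors Xa and XIa, lay between 11.76 and 12.26 on 8 arrays and at 14.13 on ob/ob vehicle 3. Serpina16, between Serpina6 and Serpina1f, was under the olfactory receptor level on every array. It differed from wild type by -0.30 in ob/ob vehicle livers and -0.64 in VE livers (SE 0.29 each, limma adjusted p = 0.666 and 0.362). All VE values of Serpina16 lay below all its wild-type values. Of all clusters, 10.6% did not overlap with VE lower than wild type and 9.78% with ob/ob vehicle lower. These genes were picked for their position.

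**Figure D3:**
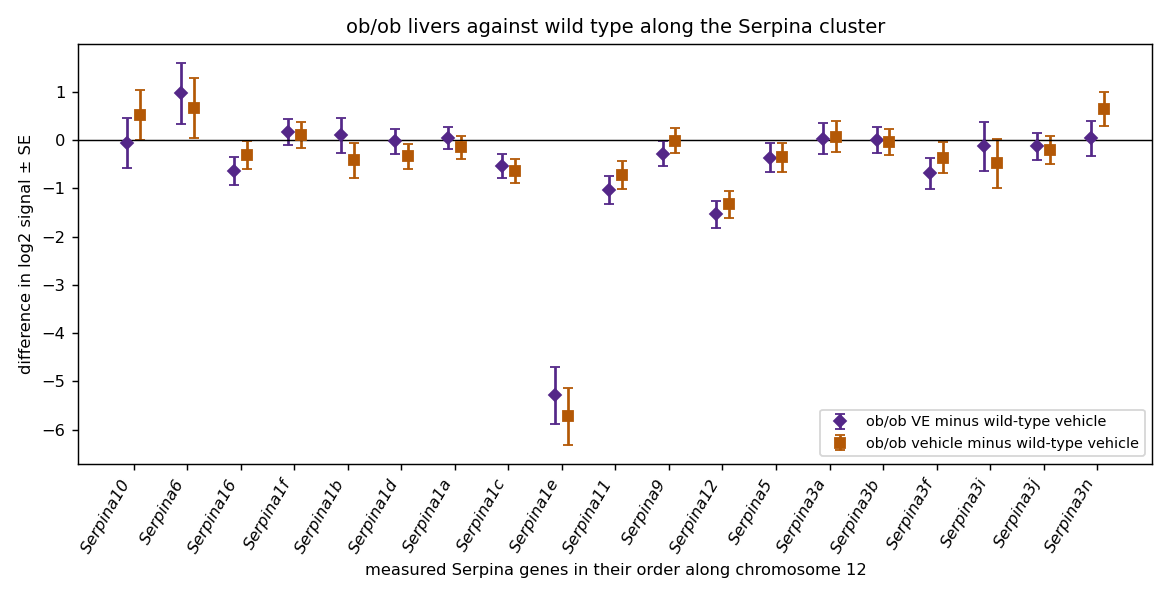
Log2 difference (y axis) of serpin genes in their order along chromosome 12 (x axis, rank and not distance), for ob/ob VE minus wild-type vehicle and ob/ob vehicle minus wild-type vehicle, with bars of 1 standard error of the limma fit (n = 3 arrays a group). Serpina1e at -5.72 (ob/ob vehicle minus wild type) stands beside Serpina1c at -0.64 and Serpina11 at -0.72.

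For the genes whose 9 values spanned at least 2 log2 units, the nearest profiles over all arrays were sought as the smallest root mean square difference after each gene's own mean was subtracted. For Serpina1e, with a span of 7.14, these were Egfr (0.53), the epidermal growth factor receptor, C6 (0.67), a terminal complement component, and Cyp7b1 (0.69), an oxysterol hydroxylase. Egfr read 5.61, 6.15 and 8.57 in VE livers, 6.57, 5.85 and 6.04 in ob/ob vehicle livers, and 12.44, 12.90 and 10.88 in wild-type livers, lowest within wild type on array 3, as Serpina1e was. C6 read 8.10, 9.37 and 11.27 in VE livers, 9.43, 9.13 and 8.76 in ob/ob vehicle livers, and 15.10, 15.77 and 15.04 in wild-type livers. VE 3 was the highest obese liver for Egfr, C6, Cyp7b1 and Serpina1e. The likeness is over 9 arrays of 3 groups and is dominated by the step between obese and wild-type livers.

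**Figure D4:**
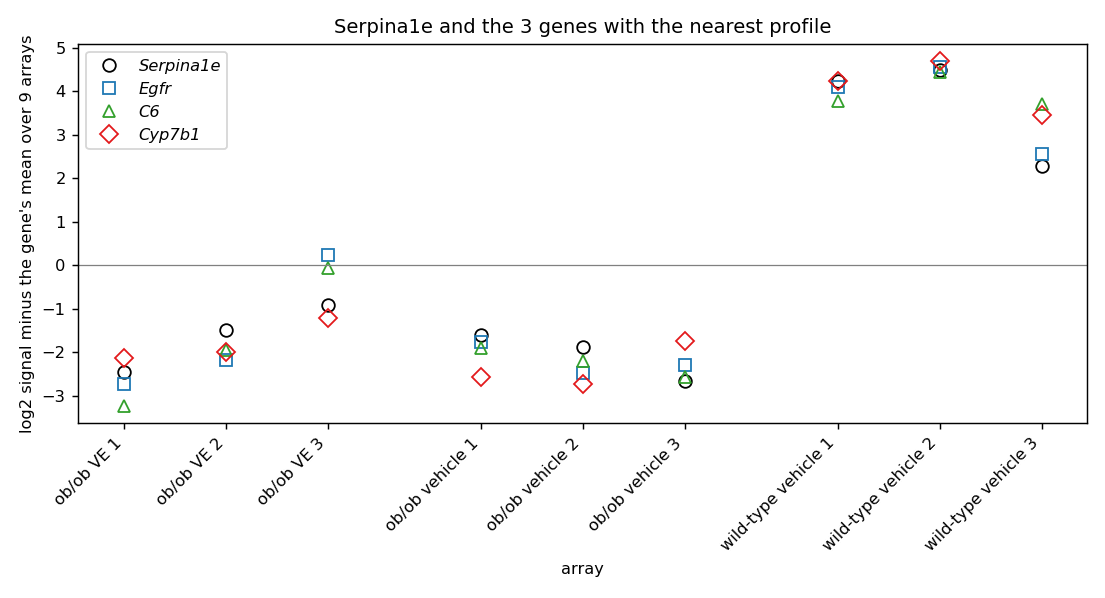
Log2 signal after subtraction of each gene's mean (y axis) over the 9 arrays (x axis, ob/ob VE, ob/ob vehicle, then wild-type vehicle) for Serpina1e and its 3 nearest genes, 1 symbol a gene. Serpina1e, Egfr, C6 and Cyp7b1 are each higher on all 3 wild-type arrays than on the 6 ob/ob arrays, and VE 3 is the highest ob/ob array for each.

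Serpina6, with a span of 2.91, was nearest to Ppif (0.24), a mitochondrial peptidyl-prolyl isomerase, Sntb1 (0.25), a syntrophin, and Tmed4 (0.27), a membrane protein of the secretory route. All 3 shared its low value on ob/ob vehicle 3, at 6.73 for Ppif, 8.72 for Sntb1 and 9.21 for Tmed4. Serpina12, with a span of 2.31, was nearest to Tlr11 (0.27), Nrap (0.29) and Phf11a (0.30). These genes were dim too, with no value above 5.62.

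Few of the remaining serpins were called, which does not show that the others were alike. Serpinb1a was higher than wild type by 2.11 in ob/ob vehicle livers and 2.43 in VE livers (limma adjusted p = 0.139 and 0.141). Serpina7 was higher by 2.45 in ob/ob vehicle livers (limma adjusted p = 0.226). It read 10.77, 11.45 and 14.27 in ob/ob vehicle livers and 9.53, 9.39 and 10.21 in wild-type livers. Its highest value was on ob/ob vehicle 3, an array that stood apart, and the difference without that array is not given. Serpind1 differed by -0.72 in both (limma adjusted p = 0.177 and 0.231). In each of these the groups did not overlap, and the genes were picked after their values were seen. Of all clusters, 9.71% did not overlap with ob/ob vehicle higher than wild type and 9.78% with it lower. For VE against wild type the shares were 11.1% higher and 10.6% lower. Of 12 other measured clade A genes, 0 were called in ob/ob vehicle against wild-type livers, where their median difference was -0.15, beside -0.06 over all clusters. Of 16 serpins of other clades 0 were called in that comparison, with a median of -0.17. Between VE and wild-type livers 1 of these 16 was lower, Serpinf2, the inhibitor of plasmin, which read 12.82, 13.82 and 14.00 in VE livers, 15.28, 14.74 and 14.09 in ob/ob vehicle livers, and 15.46, 15.84 and 15.59 in wild-type livers. Its VE difference from wild type was -2.08 (SE 0.38, limma adjusted p = 0.0277), and that call was lost on omitting VE 1 (adjusted p = 0.0952), VE 2 (0.0998), ob/ob vehicle 2 (0.0511), wild-type vehicle 2 (0.125) or wild-type vehicle 3 (0.0846), and with array medians subtracted (0.0527). Serpinf2 was named because it was the single call, after its values were seen. Over all clusters 0.315% were called lower in VE than in wild-type livers.

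Lists around the function of these inhibitors were drawn up with earlier results known. Over all clusters 0.680% were called lower and 2.28% higher in ob/ob vehicle than in wild-type livers, the shares to set beside each count. Of 19 measured target proteases 1 was lower in ob/ob vehicle than in wild-type livers (median of the list -0.12). It was Proc, protein C of the anticoagulant route, at 14.52 ± 0.49 in ob/ob vehicle livers and 16.02 ± 0.11 in wild-type livers (SD, n = 3 each, limma adjusted p = 0.023). That call was lost on omitting ob/ob vehicle 2 (adjusted p = 0.0705), wild-type vehicle 2 (0.0947) or wild-type vehicle 3 (0.0726), and with only the 2 groups in the fit (0.0793). Of 7 receptors that take up serpins or their complexes, 1 was lower, while 4 had a positive difference (median of the list 0.04). The lower gene was Asgr2, a subunit of the asialoglycoprotein receptor, at 11.89 ± 0.61 in ob/ob vehicle livers and 13.29 ± 0.22 in wild-type livers (SD, n = 3 each, limma adjusted p = 0.0428). The Asgr2 call was kept without ob/ob vehicle 3 and lost without any 1 of the other arrays (adjusted p of 0.0657 to 0.144), and was lost with the replicate number as a block (0.0515), with only the 2 groups in the fit (0.132), with array medians subtracted (0.0928) and with a trended, robust prior (0.074). Of 19 genes for folding, transport and disposal of secreted serpins 0 were called, with a median of 0.16.

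Of 11 hepatocyte transcription factors 1 was lower in ob/ob vehicle livers (median of the list -0.42). It was Onecut1 (HNF6), at 7.66 ± 0.74 in ob/ob vehicle livers and 11.16 ± 1.23 in wild-type livers (SD, n = 3 each, limma adjusted p = 0.0246). Onecut1 lost the call without VE 2, ob/ob vehicle 1, ob/ob vehicle 2, wild-type vehicle 1 or wild-type vehicle 2 (adjusted p of 0.0527, 0.0858, 0.0531, 0.0522 and 0.107), and with only the 2 groups in the fit (0.0548). Of 11 genes of growth hormone and STAT5 signalling 0 were called (median -0.08), as were 0 of 14 genes of interleukin-6 and STAT3 signalling (median -0.02). Of 19 male-biased liver genes, 14 were lower and 0 higher in ob/ob vehicle than in wild-type livers (median -3.04), where 0.680% of all clusters were lower. In VE against wild-type livers 11 were lower and 0 higher (median -2.94), where 0.315% of all clusters were lower. Slco1a1, an organic anion carrier, read 4.86 ± 0.79 in ob/ob vehicle livers and 16.01 ± 0.30 in wild-type livers, and Hsd3b5, a steroid reductase of male liver, read 4.68 ± 0.25 in ob/ob vehicle livers and 14.54 ± 0.65 in wild-type livers (SD, n = 3 each). Cyp7b1, named above as near to Serpina1e, is on that list too. The call of Slco1a1, Hsd3b5 and Cyp7b1 was kept on leaving out each array in turn.

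Positive acute phase proteins, made by hepatocytes in inflammation as Serpina3n is, were higher in part. Of 21 measured, 6 were higher and 0 lower in ob/ob vehicle than in wild-type livers (median 1.18), where 2.28% of all clusters were higher. In VE against wild-type livers 3 were higher and 0 lower (median 0.32), where 0.977% of all clusters were higher. The orosomucoid Orm3 read 10.47 ± 1.05 in ob/ob vehicle livers and 4.80 ± 0.19 in wild-type livers, and Orm2 read 14.98 ± 0.74 in ob/ob vehicle livers and 10.28 ± 1.13 in wild-type livers (SD, n = 3 each). The zinc-binding metallothionein Mt1 read 16.87 ± 0.39 in ob/ob vehicle livers and 11.64 ± 0.86 in wild-type livers (SD, n = 3 each). The call of Orm3, Orm2 and Mt1 was kept on leaving out each array in turn. The list's array mean was 13.90 to 14.58 in VE livers, 14.51 to 16.46 in ob/ob vehicle livers and 12.85 to 13.54 in wild-type livers, highest on ob/ob vehicle 3, the array with the highest Serpina3n.

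For glucocorticoid signalling, the hormone axis of Serpina6, 1 of 13 genes was higher and 1 lower in ob/ob vehicle than in wild-type livers. Of all clusters 2.28% were higher and 0.680% lower. The median of the 13 was -0.6, with 2 positive differences, beside -0.06 over all clusters. For VE minus ob/ob vehicle it was 0.61, with 10 positive and 0 called, beside -0.01 over all clusters. The list's array mean was 10.48 to 11.32 in VE livers, 9.32 to 10.72 in ob/ob vehicle livers and 10.8 to 10.97 in wild-type livers. It was lowest on ob/ob vehicle 3, an array that stood apart. Akr1d1, which reduces steroids, read 14.42 ± 0.63 in ob/ob vehicle livers and 12.25 ± 0.84 in wild-type livers (SD, n = 3 each, limma adjusted p = 0.0417). Tsc22d3 (GILZ), a target of the glucocorticoid receptor, read 9.41 ± 0.11 in ob/ob vehicle livers and 11.84 ± 1.16 in wild-type livers (SD, n = 3 each, limma adjusted p = 0.0483). The Akr1d1 call was lost without VE 2, VE 3, ob/ob vehicle 1, ob/ob vehicle 2, wild-type vehicle 2 or wild-type vehicle 3 (adjusted p of 0.0594 to 0.15), and the Tsc22d3 call without VE 1, VE 2, ob/ob vehicle 1, ob/ob vehicle 2, wild-type vehicle 2 or wild-type vehicle 3 (adjusted p of 0.0725 to 0.17). With only the 2 groups in the fit both calls were lost (0.0986 for Akr1d1 and 0.0919 for Tsc22d3), as they were when the interquartile range entered as a covariate (0.0669 and 0.0795). The Akr1d1 call was also lost after quantile normalization (0.0518), and the Tsc22d3 call with array medians subtracted (0.0603) and without both arrays that stood apart (0.0591).

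With the extract, 0 genes of the 11 pathway lists passed limma's test against ob/ob vehicle. The gene with the smallest p of each list follows, 4 with a positive and 7 with a negative difference. Cebpb, a transcription factor of the acute phase response, was at 8.39 ± 0.45 in VE livers and 6.77 ± 0.54 in ob/ob vehicle livers (SD, n = 3 each, limma adjusted p = 0.593). Il6ra, the interleukin-6 receptor subunit, was at 9.97 ± 0.89 in VE livers and 7.85 ± 0.55 in ob/ob vehicle livers (SD, n = 3 each, limma adjusted p = 0.593). Zbtb16, a target of the glucocorticoid receptor, was at 10.42 ± 0.89 in VE livers and 7.88 ± 0.68 in ob/ob vehicle livers (SD, n = 3 each, limma adjusted p = 0.626). For Cebpb, Il6ra and Zbtb16 all VE livers lay above all ob/ob vehicle livers, as in 7.47% of all clusters. Array weights gave them adjusted p-values of 0.042, 0.045 and 0.0415, and Zbtb16 was also called without both arrays that stood apart (2.59, limma adjusted p = 0.0294).

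Among the negative differences, Lbp, the acute phase protein that binds lipopolysaccharide, was at 10.19 ± 0.62 in VE livers and 11.32 ± 0.26 in ob/ob vehicle livers (SD, n = 3 each, limma adjusted p = 0.707). Serpinb9, the inhibitor of granzyme B, was at 5.43 ± 0.36 in VE livers and 6.47 ± 0.11 in ob/ob vehicle livers (SD, n = 3 each, limma adjusted p = 0.707). Edem1, which marks misfolded glycoproteins for disposal, was at 11.58 ± 0.31 in VE livers and 12.31 ± 0.22 in ob/ob vehicle livers (SD, n = 3 each, limma adjusted p = 0.767). For Lbp, Serpinb9 and Edem1 all VE livers lay below all ob/ob vehicle livers, as in 6.08% of all clusters. These genes too were taken for the smallest p of their lists. Lrp1, a receptor for serpin complexes, differed by -1.10 (SE 0.40, limma adjusted p = 0.741), with overlap, and by -1.52 without both arrays that stood apart (limma adjusted p = 0.0478). Serpina7, thyroxine-binding globulin, was at 11.48, 10.55 and 7.94 in VE livers and 10.77, 11.45 and 14.27 in ob/ob vehicle livers, which overlapped (difference -2.17, limma adjusted p = 0.767). Without ob/ob vehicle 3 the Serpina7 difference was -1.12. C8a, a terminal complement component on the male-biased list, differed by -1.29 (SE 0.56, limma adjusted p = 0.767), and by -0.62 without ob/ob vehicle 3. F10, coagulation factor X, differed by -0.55 (SE 0.35, limma adjusted p = 0.836), and by -0.22 without VE 1. Socs1, a suppressor of cytokine signalling, differed by 0.47 (SE 0.27, limma adjusted p = 0.82).

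Markers of other liver cells are given beside these values. All counts are for ob/ob vehicle against wild-type livers, where 2.28% of all clusters were called higher and 0.680% lower. Between ob/ob vehicle and wild-type livers 0 of 9 measured Kupffer and macrophage markers were called, with array means of 5.59 to 6.68 in VE livers, 6.95 to 7 in ob/ob vehicle livers and 6.14 to 6.89 in wild-type livers. Of 8 adipocyte markers 2 were higher in ob/ob vehicle than in wild-type livers, with array means of 7.38 to 7.69 in VE livers, 7.33 to 7.65 in ob/ob vehicle livers and 6.65 to 6.93 in wild-type livers. Of 9 neutrophil markers 0 were called, with array means of 4.15 to 4.68 in VE livers, 4.17 to 5.02 in ob/ob vehicle livers and 4.43 to 4.80 in wild-type livers. Of 8 cholangiocyte markers 1 was lower, Onecut1, which is also on the list of transcription factors, with array means of 4.90 to 5.14 in VE livers, 4.75 to 4.99 in ob/ob vehicle livers and 5.30 to 5.48 in wild-type livers. Of 10 stellate cell markers 1 was higher in ob/ob vehicle than in wild-type livers, and 0 of 9 hepatocyte, 0 of 10 sinusoidal endothelial, 0 of 8 T and NK cell and 0 of 9 pancreatic acinar markers were called. The part of these cell types in the serpin values was not tested.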

How the data were processed

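The deposited table holds log2 signals of 22206 transcript clusters on 9 arrays, which the authors made from 100 ng of RNA for each sample by SST-RMA (signal space transformation and robust multi-chip averaging) in Transcriptome Analysis Console 4.0.2, per the series' design text. Clusters were named from the platform annotation, in which 19572 have 1 symbol, 2634 none and 0 several. The values were not normalized again. limma 3.58.1 (lmFit, eBayes) in R 4.3.3 was fitted with a mean for each group over all 22206 clusters and all 9 arrays, with Benjamini-Hochberg adjustment over the whole table and calls at an adjusted p under 0.05. The script was tested on simulated data. An exact permutation test of 3 arrays against 3 cannot go below p = 0.1, so none is given. The number of arrays limits the precision. Members and lists were chosen with earlier results of these data known. The text names all members, from each pathway list up to 3 genes called between ob/ob vehicle and wild type and the 1 gene with the smallest p for VE against ob/ob vehicle, and the 3 nearest profiles. Promoter windows were aligned with Biopython 1.88. Deviations of same-numbered ob/ob vehicle and wild-type arrays from their group means correlated at 0.256, 0.262 and 0.45, and differently numbered ones at up to 0.218, 0.26 and -0.292. The labels do not say what a number marks. The fit behind the printed values has no replicate block, and the blocked fit is an alternative, printed where it changes a call. For VE and ob/ob vehicle they correlated at -0.13, 0.016 and -0.106, and for VE and wild type at -0.208, -0.041 and -0.143. Alternatives were other scalings, filters, weights, blocks and arrays left out. One result was left out and is not reported here.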

Additional observations from a re-analysis of the deposited data

How the results depend on the processing

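Of the alternative values of the named genes, 349 of 359 kept their direction and side of the threshold for VE against ob/ob vehicle, 391 of 456 for ob/ob vehicle against wild type, and 138 of 171 for VE against wild type. For Serpina1e against wild type no threshold was used in these counts. There a value counted as kept if its direction held and it moved by less than the larger of the group SDs. The Serpina1e difference from wild type, a description here, ranged from -6.79 to -5.31 for ob/ob vehicle and from -6.18 to -4.87 for VE. The count of called clusters for VE against ob/ob vehicle was 0, but 106 when arrays were weighted, 1 when each array's interquartile range entered as a covariate, 360 without both arrays that stood apart, 1433 by the looser criterion, and 0 to 51 on leaving out single arrays, with 51 without ob/ob vehicle 3. For ob/ob vehicle against wild type the count was 658, but 207 with only these 2 groups, 2137 with array weights, 1745 without both arrays, 3771 by the looser criterion, and 147 (without wild-type vehicle 2) to 1679 (without ob/ob vehicle 3). For VE against wild type it was 287, but 796 with array weights, 595 without both arrays, 3115 by the looser criterion, and 77 (without VE 2) to 598 (without ob/ob vehicle 3).

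Small differences changed sign. For VE against ob/ob vehicle, Serpina6 was -0.35 with array weights and -0.64 without both arrays, Serpina1c was -0.08 without both arrays, and single arrays left out gave -0.64 to 0.82 for Serpina6 and -0.08 to 0.25 for Serpina1c. For ob/ob vehicle against wild type, the interquartile range as a covariate gave -0.60 for Serpina6, -0.42 for Sntb1 and -0.18 for Tmed4, and Serpina1a ran from -0.24 to 0.01 on leaving out arrays. For VE against wild type, quantile normalization gave -0.04 for Serpina1a, 0.01 for Serpina1d and -0.30 for Serpina3n, subtracting array medians gave 0.12 for Serpina1d, and array weights gave -0.04 for Serpina3n. There the covariate gave -0.14 for Serpina1a, -0.44 for Serpina1b, -0.15 for Serpina3n and -0.09 for Serpina6, and leaving out both arrays gave -0.01 for Serpina1b and -0.32 for Serpina3n. Arrays left out gave -0.06 to 0.30 for Serpina1b, -0.08 to 0.10 for Serpina1d and -0.32 to 0.31 for Serpina3n. The cause of these shifts was not tested. Serpina12 against wild type lost its call in ob/ob vehicle with only the 2 groups (adjusted p = 0.0986) or the covariate (0.082), and in VE with the covariate (0.0569). Lost and gained calls of list genes are given beside each gene, and Ppif, Sntb1 and Tmed4, not called for ob/ob vehicle against wild type, were called without ob/ob vehicle 3 (adjusted p of 0.00332, 0.00889 and 0.01). With the replicate block, the calls of Serpina12 (0.0643 and 0.057) and Asgr2 (0.0515) were lost and no other call of a named gene changed. The choice among several clusters of a symbol gave no value, since each member has 1. Signals of Serpina12 in obese liver near those of olfactory receptors, and of Serpina1a, Serpina1c and Serpina1d near the array maximum, limit what a difference there can show.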
